A study of Mus musculus with 16 samples.

Results

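The chromatin around the Id genes and the CDK inhibitor genes was examined in pancreatic ductal adenocarcinoma (PDAC) cells taken from pancreas, liver and lungs of mice with Smad4 silenced or restored. The 10 genes were Id1, Id2, Id3, Id4, Cdkn1a, Cdkn1b, Cdkn1c, Cdkn2a, Cdkn2b and Cdkn2c. Accessibility was measured by ATAC-seq, in which a transposase cuts open DNA and the reads over a region count how often it was cut. A peak was given to 1 of the 10 genes when the nearest start site of a protein-coding gene, measured from the peak's midpoint and at most 100 kb away, was that gene's. The rule found 83 of 136630 nuclear peaks: 22 at Id2, 11 at Id3, 10 at Cdkn1c, 9 at Cdkn1b, 8 at Cdkn1a, 7 at Cdkn2c, 6 at Id1, 5 at Id4, 4 at Cdkn2b and 1 at Cdkn2a. Of these, 39 lay within 20 kb of the start site. The nearest start site need not be the gene that a peak acts on, and accessibility is not expression.

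Id proteins carry a helix-loop-helix without a DNA-binding region, so they pair with E proteins and keep them off DNA. The Id genes are direct targets of BMP signals, which act through SMAD1, SMAD5 and their common partner SMAD4, and TGF-beta can raise or repress them depending on the cell. CDK inhibitors hold the cell cycle back. The Cip/Kip family, p21 (Cdkn1a), p27 (Cdkn1b) and p57 (Cdkn1c), binds several cyclin-CDK complexes, whereas the INK4 family, p16 (Cdkn2a), p15 (Cdkn2b) and p18 (Cdkn2c), binds CDK4 and CDK6. p15, p21 and p57 are known mediators of growth arrest by TGF-beta through SMAD4.

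The cells came from tumors of KC-shSmad4 mice, which carry, among other alleles, Ptf1a-Cre, a Rosa26 cassette with rtTA3 and mKate2, and a doxycycline-driven, GFP-linked hairpin against Smad4 at Col1a1. They were injected into the pancreas, the spleen (for the liver) or the tail vein (for the lungs) of athymic nude mice, which lack T cells, and all hosts ate doxycycline chow at first, so that Smad4 was off while tumors formed. In the Smad4-on groups the chow was withdrawn at 4 weeks (pancreas), 5 weeks (liver) or 6 weeks (lungs), for 14 days per the methods, although the deposited columns mark the lung samples as day 15, and mKate2+ cells were sorted. Panc-Smad4OFF, Panc-Smad4ON, Lung-Smad4OFF and Lung-Smad4ON had 3 samples each, Liv-Smad4OFF and Liv-Smad4ON had 2 each, and each sample was a separate mouse. The groups therefore differ in organ, route and weeks of growth at once, and these cannot be told apart. The labels do not say which tumor-derived line each sample came from, and the hairpin leaves no mark by which accessibility could check the Smad4 state.

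Each library had 22.5 to 37.5 M reads in nuclear peaks. All 7 markers of ductal epithelium had a start-site peak, and their summed normalized counts ran from 20828 to 23807 in Panc-Smad4OFF, 48532 to 48672 in Liv-Smad4OFF and 22361 to 32327 in Lung-Smad4OFF. Sox9 in this list was not higher in the liver, with 3141 to 3176, 2838 to 3063 and 3010 to 3087 in the same groups. Markers of host cells were low but moved with the organ. Of 7 hepatocyte markers 1 (Ttr) had a peak at its start site, with a count of 164 to 231 in Liv-Smad4OFF and 52.5 to 96.7 in Lung-Smad4OFF. None of the 6 lung epithelium markers had such a peak. The 5 fibroblast markers summed to 674 to 1206 in Panc-Smad4OFF, 131 to 168 in Liv-Smad4OFF and 147 to 437 in Lung-Smad4OFF, the acinar list (2 of 5 with a peak) to 207 to 265, 599 to 668 and 233 to 335, and the leukocyte list (1 of 6) stayed at or below 54.4. The endothelial list (2 of 4) reached 712 in Lung-Smad4OFF replicate 1, where Cdh5 had 697 against at most 129 in the other libraries. That library also stood apart over a long stretch of chromosome 6 that includes Cdkn1b, so the Cdkn1b differences that involve it are given with and without it. The part of these cells in the results that follow was not tested, and fewer open cells cannot be told apart from less signal per cell.

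The start-site peaks of Id1, Id2 and Id3 were the 3 widest of the set, at 10.5, 7.3 and 5.7 kb, and they are shown first as sequence because they hold an element that is rare elsewhere. The known BMP response element of Id genes joins GGCGCC, which SMAD1 and SMAD5 bind, to GTCT, which SMAD4 binds, with 5 bases between them. Searched as GGCGCC, any 5 bases and then GTCT, on both strands of every whole peak (mm10), it was present in 102 of 136630 peaks (0.0747%) and in 0.521% of the 11328 peaks of at least 2 kb. Among the 83 peaks, 5 held it, with 6 matches, and all lay at Id1, Id2 or Id3. None of the peaks at Id4 or at a CDK inhibitor held it. The 6 matches are printed with 25 bases on either side, 5′ to 3′ on the strand of the gene, with the element in capitals, and each name gives the distance in bases from the annotated start of the gene that is nearest to the peak's midpoint, so the names of the 2 Id2 matches count from different annotated starts of Id2.
Id1 +3220: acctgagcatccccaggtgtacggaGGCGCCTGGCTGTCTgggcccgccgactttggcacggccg
Id2 -1728: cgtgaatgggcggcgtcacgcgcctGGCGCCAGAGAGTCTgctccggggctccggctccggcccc
Id2 +3029: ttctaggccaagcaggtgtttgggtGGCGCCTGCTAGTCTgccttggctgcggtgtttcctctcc
Id3 -2957: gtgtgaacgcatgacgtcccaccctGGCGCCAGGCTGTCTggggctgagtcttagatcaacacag
Id3 +1296: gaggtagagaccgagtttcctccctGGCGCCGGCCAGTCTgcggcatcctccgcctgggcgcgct
Id3 +4484: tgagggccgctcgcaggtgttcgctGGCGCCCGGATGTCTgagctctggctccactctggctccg
They lie at chr2:152739446-152739510 (Id1, plus strand), chr12:25098829-25098893 and chr12:25093019-25093083 (Id2, minus strand), and chr4:136140515-136140579, chr4:136144768-136144832 and chr4:136147956-136148020 (Id3, plus strand). None overlaps an annotated exon. The match at +1296 is inside the Id3 gene, in an intron, and the others are upstream or downstream of their genes.

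The shorter GGCGCC, which is contained in the composite, was also upstream of Id1. It is printed in capitals within 150 bases of the same start-site peak, chr2:152735080-152735229, because this stretch lies closest to the Id1 start. The composite search took exact letters only. A stretch with a changed GTCT, here or at another gene, was therefore not counted, and its absence from the count does not show that no such element is present.
Id1 -1099: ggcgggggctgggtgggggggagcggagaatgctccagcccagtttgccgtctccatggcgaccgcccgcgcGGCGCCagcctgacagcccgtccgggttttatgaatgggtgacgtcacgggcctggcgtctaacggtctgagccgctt
GGCGCC alone is common in wide GC-rich peaks. It was in 17 of the 83 whole peaks and in 8.76% of all peaks, and in 40.0% of those of at least 2 kb. The palindrome of the TGF-beta type SMAD site, GTCTAGAC, was in 1 member peak, the start-site peak of Cdkn1a, against 0.905% of all peaks. These matches describe letters in the open regions and do not show that a SMAD protein was bound.

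The first question was whether the loci were equally open in liver and lung metastases that grew without Smad4. Within 20 kb of the start sites, more of their peaks were called higher in the liver than lower, though not at every gene. A peak was called when its group means differed by at least 0.58 on the log2 scale with an adjusted p of at most 0.1 (limma over all nuclear peaks, Benjamini-Hochberg). Of the 83 peaks 37 were called (44.6%), 21 higher and 16 lower in Liv-Smad4OFF than in Lung-Smad4OFF, against 49.7% of all peaks (22.9% higher, 26.8% lower). The median log2 difference was 0.03 over the 83 peaks and 0.00 over all peaks. The number called was thus near the background, and the 2 directions fell at different distances. Within 20 kb of the start site, 14 of 39 peaks were higher (35.9%) and 1 was lower (2.56%), where all peaks at that distance gave 26.3% and 18.7%. From 20 to 100 kb, 7 of 44 were higher (15.9%) and 15 lower (34.1%), against 22.6% and 30.1% of all such peaks, and this split was not tested. Start-site peaks as a whole were shifted toward the liver: the 13173 peaks that overlap any protein-coding start had a median log2 difference of 0.40, and 21.1% were called higher and 4.68% lower. That shift was 0.33 with TMM factors, 0.21 with a GC correction and 0.10 after quantile normalization, so each start-site difference is to be read against it.

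**Figure D1:**
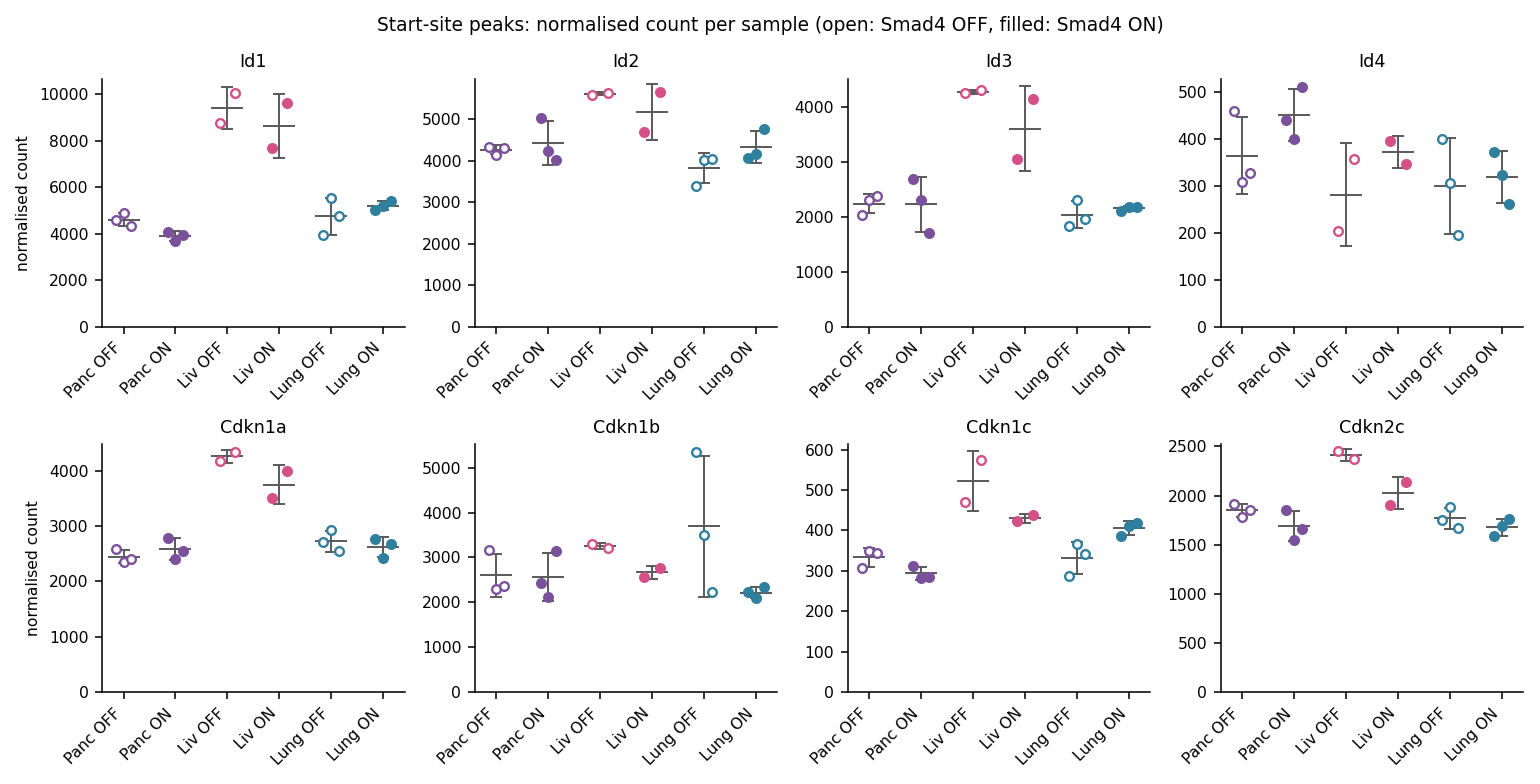
Normalized count (y axis, from 0) of the start-site peak of 8 genes in each of the 16 samples, by group, with open points for Smad4 off, filled points for Smad4 on and lines for the mean ± SD. Both Liv-Smad4OFF samples of Id1 (8775 and 10070) sit above all 3 Lung-Smad4OFF samples (3930 to 5557), while those of Id4 (204 and 359) lie among them (196 to 401).

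Id1 had the largest share of its peaks more open in the liver, 5 of 6. Its start-site peak, chr2:152733209-152743676, covered the whole gene and held 89.1% of the counts of the locus. Normalized counts there were 8775 and 10070 in Liv-Smad4OFF, 3930, 5557 and 4754 in Lung-Smad4OFF, and 4613, 4896 and 4335 in Panc-Smad4OFF. The liver samples did not overlap those of either other organ. The log2 difference was 1.00 ± 0.12 (SE) from the lungs (limma, adjusted p = 3.04e-05) and 1.03 from the pancreas (adjusted p = 1.27e-05), whereas the lungs and the pancreas differed by 0.03. The difference from the lungs was called under all 16 alternative settings, with values from 0.60 to 1.12.

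Id3 was also most open in the liver at its start site, chr4:136142999-136148703, which holds the composite elements at +1296 and +4484. Counts were 4255 and 4308 in Liv-Smad4OFF, 1833, 2317 and 1973 in Lung-Smad4OFF and 2044, 2305 and 2383 in Panc-Smad4OFF, with the liver above every other sample. The log2 difference from the lungs was 1.08 ± 0.16 (adjusted p = 0.000115), and it ranged from 0.65 to 1.17 over the alternatives. The nearest upstream peak at −3.0 kb, chosen after its values were seen because it holds the composite at −2957, had 664 and 729 in Liv-Smad4OFF and 375, 436 and 465 in Lung-Smad4OFF. It differed by 0.71 ± 0.20 (adjusted p = 0.00891), and its pancreas values (520, 624 and 670) reached into those of the liver.

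Id2 and Id4 did not pass at their start sites. At Id2, chr12:25094443-25101730, counts were 5586 and 5636 in Liv-Smad4OFF, 3394, 4022 and 4033 in Lung-Smad4OFF and 4336, 4137 and 4300 in Panc-Smad4OFF. The groups did not overlap, but the log2 difference from the lungs of 0.56 ± 0.10 (adjusted p = 0.000573) was under the 0.58 required. Id4, which often acts against the other Id proteins, had a small start-site peak at chr13:48260472-48261707 with 204 and 359 in Liv-Smad4OFF, 401, 306 and 196 in Lung-Smad4OFF and 460, 309 and 327 in Panc-Smad4OFF. These groups overlapped, and the difference of −0.09 ± 0.29 (adjusted p = 0.805) had no fixed sign across the alternatives. None of the 5 Id4 peaks was called between any organs or Smad4 states.

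Among the Cip/Kip genes, Cdkn1a and Cdkn1c were called at the start site and Cdkn1b was not. Cdkn1a, whose product p21 is also a p53 target, had counts of 4181 and 4343 in Liv-Smad4OFF at chr17:29093309-29097684, 2715, 2921 and 2545 in Lung-Smad4OFF and 2580, 2349 and 2406 in Panc-Smad4OFF. The liver samples stood above all others, by 0.65 ± 0.09 on the log2 scale over the lungs (adjusted p = 7.96e-05). Cdkn1c, an imprinted gene, had a short peak at its start, chr7:143460783-143461489, with 469 and 575 in Liv-Smad4OFF, 287, 366 and 342 in Lung-Smad4OFF and 307, 350 and 344 in Panc-Smad4OFF. Its difference from the lungs was 0.65 ± 0.15 (adjusted p = 0.00283). Both calls were close to the 0.58 threshold and were lost under several settings: Cdkn1a fell to 0.36 with a GC correction and 0.23 with quantile normalization, and Cdkn1c to 0.39 and 0.52, and to 0.55 without Lung-Smad4OFF replicate 1.

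The Cdkn1b start-site peak, chr6:134919132-134924645, had 3309 and 3210 in Liv-Smad4OFF, 5357, 3496 and 2226 in Lung-Smad4OFF and 3162, 2295 and 2357 in Panc-Smad4OFF. The lung samples spread on both sides of the liver samples, and the log2 difference was −0.09 ± 0.24 (adjusted p = 0.782). The spread followed the chromosome region. The median level of the 647 peaks within 5 Mb of Cdkn1b, as a log2 deviation from the mean of the 16 samples, was 1.56 in Lung-Smad4OFF replicate 1, 0.54 in Panc-Smad4ON replicate 3, 0.47 in Lung-Smad4OFF replicate 2 and between −0.45 and 0.15 in the other 13 samples. With each sample's regional level subtracted, the liver was higher by 0.84 (adjusted p = 0.000658), and without Lung-Smad4OFF replicate 1 the difference was 0.22 (adjusted p = 0.374). Copy number was not measured here, so a regional gain cannot be told apart from a change in openness.

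**Figure D2:**
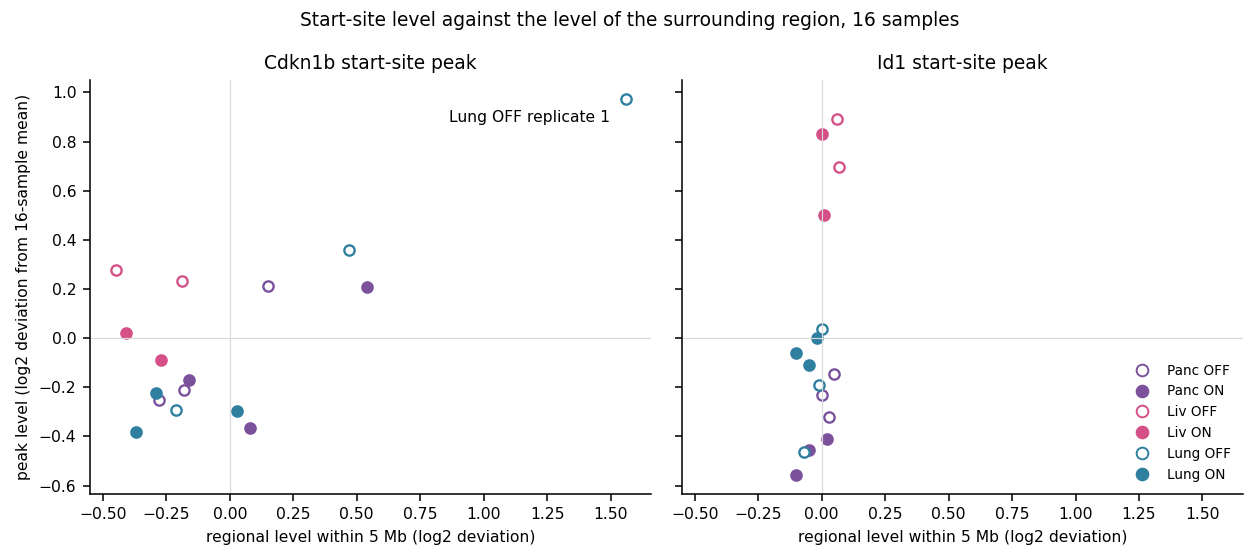
Level of the start-site peak (y axis, log2 deviation from the mean of 16 samples) against the median level of the peaks within 5 Mb (x axis, same scale) for 2 genes, 1 point per sample, colored by group. At Cdkn1b the samples follow the region, with Lung-Smad4OFF replicate 1 at 1.56 on the x axis, while at Id1 the region spans only −0.10 to 0.07 and the liver samples are high on the y axis.

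Elsewhere the regional levels moved less. They spanned −0.10 to 0.07 around Id1 and −0.12 to 0.08 around Id2. Around Id3 they were 0.23 and 0.33 in Liv-Smad4OFF and −0.44 to −0.19 in Panc-Smad4ON, around Cdkn1a 0.21 and 0.25 in Liv-Smad4OFF, and around Cdkn2a −0.34 in both Liv-Smad4OFF samples. After the adjustment the log2 difference between liver and lungs was 0.39 at the Cdkn1a start and 0.43 at the Cdkn1c start, under the threshold, and the Id1 and Id3 start sites were still called.

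The INK4 genes differed most in what could be measured. Cdkn2c had an open start site, chr4:109664581-109667933, with 2458 and 2373 in Liv-Smad4OFF, 1756, 1884 and 1672 in Lung-Smad4OFF and 1915, 1783 and 1853 in Panc-Smad4OFF. The liver was above both other organs, but the log2 difference from the lungs of 0.45 ± 0.09 (adjusted p = 0.00115) was under the threshold and near the 0.40 of all start-site peaks. Neither Cdkn2a nor Cdkn2b had a peak at its start site. Counting peaks with a mean normalized count of at least 5, a gap of 286.4 kb, chr4:89106911-89393325, separated the flanking peaks and held the start sites of Cdkn2a, Cdkn2b and Mtap. Gaps of this kind were not unique: 908 in the genome were as long, 191 of them with at least 3 protein-coding start sites, and 62.2% of 21840 protein-coding genes had a start site in a peak. The 1 peak inside the gap, assigned to Cdkn2a at +17.4 kb, was 235 bases long with 77.0% GC. It held 15 reads over the 16 samples, with at most 4 in a sample and 0 in 8 samples, so no fold is given. The study describes deletion of this locus in most tumor-derived lines of the model, and whether these cells carry it was not analyzed here.

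Outside the start-site peaks there were larger differences, and they went both ways. The next peaks are those that differed at least 4-fold between Liv-Smad4OFF and Lung-Smad4OFF, and except for the peak of smallest p at each gene they were chosen after their values were seen. The largest difference was at Id1, 19.8 kb upstream (chr2:152716128-152716676), where counts were 54.3 and 167 in Liv-Smad4OFF, 2.76, 9.78 and 1.72 in Lung-Smad4OFF and 2.56, 3.57 and 6.48 in Panc-Smad4OFF. The 2 liver samples differed widely from each other, yet the lower one was far above every lung sample. The log2 difference from the lungs was 4.33 ± 0.72 (adjusted p = 0.000293). With Smad4 restored the same peak had 132 and 141 in the liver and at most 11.2 in the lungs. Its central 300 bases, chr2:152716253-152716552, are shown because this is the largest gain in the liver of the set, and they hold none of the motifs searched.
Id1 -19.8 kb: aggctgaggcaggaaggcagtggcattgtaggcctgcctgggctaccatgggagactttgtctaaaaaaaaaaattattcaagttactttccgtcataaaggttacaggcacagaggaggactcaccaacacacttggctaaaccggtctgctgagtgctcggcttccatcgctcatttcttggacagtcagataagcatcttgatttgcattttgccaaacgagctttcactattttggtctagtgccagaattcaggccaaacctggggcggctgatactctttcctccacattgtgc
A second Id1 peak, 8.4 kb downstream and nearly as close to Cox4i2, had 24.7 and 48.8 in Liv-Smad4OFF and 2.76, 2.17 and 2.58 in Lung-Smad4OFF, a log2 difference of 3.35 ± 0.62 (adjusted p = 0.000563).

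Id2 had the most peaks, and its called peaks split 3 higher and 6 lower in the liver. The 3 higher ones were at −9.7 kb (log2 difference 3.19 ± 0.72), −79.4 kb (3.16 ± 0.61) and −72.7 kb (2.09 ± 0.35). The last had 147 and 137 in Liv-Smad4OFF and 25.8, 46.7 and 28.4 in Lung-Smad4OFF. The peak with the smallest p at the locus went the other way. At −92.8 kb, chr12:25188761-25191176, counts were 246 and 203 in Liv-Smad4OFF, 1316, 685 and 891 in Lung-Smad4OFF and 1211, 1262 and 1369 in Panc-Smad4OFF. The liver samples were below every sample of the other organs, by 2.05 ± 0.26 on the log2 scale from the lungs (adjusted p = 5.32e-05). The central 300 bases, chr12:25189819-25190118, are printed for this peak, with 1 match to the RUNX letters TGTGGT (here on the other strand) in capitals.
Id2 -92.8 kb: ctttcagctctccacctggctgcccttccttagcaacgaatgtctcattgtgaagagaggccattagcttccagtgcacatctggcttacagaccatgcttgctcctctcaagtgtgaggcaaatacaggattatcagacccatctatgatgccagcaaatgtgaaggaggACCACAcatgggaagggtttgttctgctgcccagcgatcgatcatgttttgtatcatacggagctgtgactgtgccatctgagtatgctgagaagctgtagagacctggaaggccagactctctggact
The stretch from −92.8 to −30.4 kb of Id2 thus held peaks that were lower in the liver side by side with peaks that were higher.

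**Figure D3:**
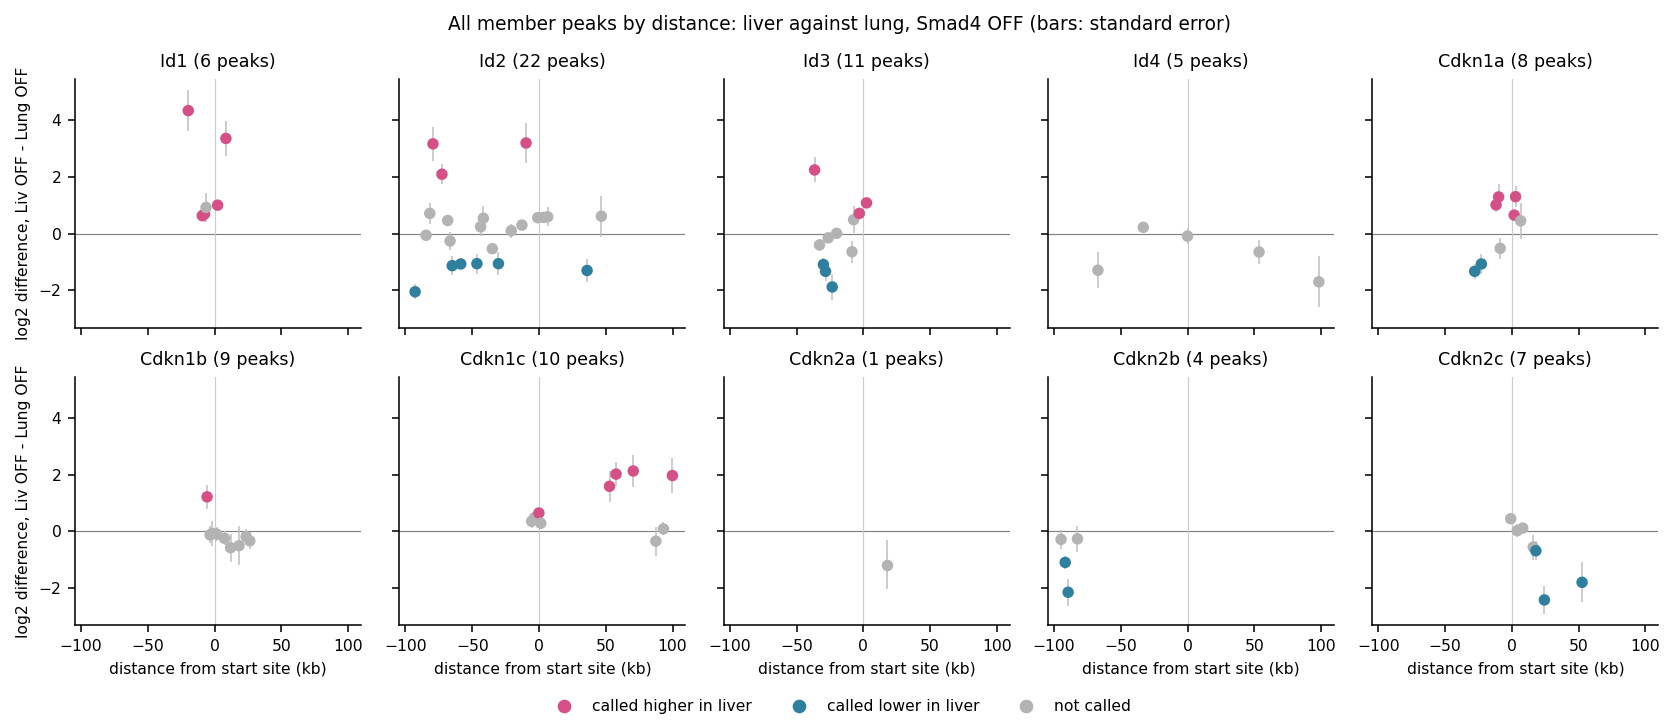
Log2 difference between Liv-Smad4OFF and Lung-Smad4OFF (y axis, bars are standard errors) of the 83 peaks against distance from the start site in kb (x axis), 1 panel per gene, with called peaks colored. Within 20 kb of the start sites 14 called peaks lie above 0 and 1, at Cdkn2c, below it, and beyond 20 kb 7 lie above and 15 below.

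At Id3, 3 peaks were higher and 3 lower in the liver. The peak at −36.5 kb had 43.2 and 79.4 in Liv-Smad4OFF and 13.8, 8.69 and 12.9 in Lung-Smad4OFF, 2.24 ± 0.44 higher on the log2 scale. Those at −23.3, −28.3 and −29.9 kb were lower, by −1.88, −1.33 and −1.09. At Cdkn1a, peaks 27.9 and 22.9 kb upstream were lower in the liver (−1.33 and −1.07), and those at −11.9, −10.0 and +2.7 kb were higher (1.01, 1.29 and 1.30). At Cdkn1b a small peak at −5.7 kb was the 1 called, with 60.5 and 44.6 in Liv-Smad4OFF and 18.4, 38.0 and 14.6 in Lung-Smad4OFF (1.22 ± 0.43, adjusted p = 0.0294). The difference was 1.10 (adjusted p = 0.0776) without Lung-Smad4OFF replicate 1 and 2.14 after the regional adjustment, and it was not called without Liv-Smad4OFF replicate 1 (1.00, adjusted p = 0.181) or without Lung-Smad4OFF replicate 3 (0.94, adjusted p = 0.107).

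The called distal peaks of Cdkn1c were all higher in the liver and those of the INK4 genes all lower. Downstream of Cdkn1c, in introns of the neighboring gene Kcnq1, the peak at +57.7 kb (chr7:143402942-143403611) had 121 and 83.6 in Liv-Smad4OFF and 17.5, 36.9 and 21.5 in Lung-Smad4OFF (2.02 ± 0.42, adjusted p = 0.00123). Peaks at +52.8, +70.6 and +99.9 kb were higher by 1.59, 2.13 and 1.97. The start of Kcnq1 is farther from these peaks than that of Cdkn1c. For Cdkn2b the nearest peaks beyond the gap were all upstream, starting at −82.5 kb. Those at −89.5 and −91.7 kb were lower in the liver, by 2.14 ± 0.48 and 1.09 ± 0.23 on the log2 scale, with 62.9 and 64.1 at −91.7 kb in Liv-Smad4OFF and 168, 137 and 109 in Lung-Smad4OFF. At Cdkn2c the peak at +24.3 kb had 3.70 and 18.1 in Liv-Smad4OFF and 59.8, 35.9 and 56.0 in Lung-Smad4OFF (−2.41 ± 0.50, adjusted p = 0.00124), and those at +52.5 and +17.9 kb were lower by 1.79 and 0.68.

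**Figure D4:**
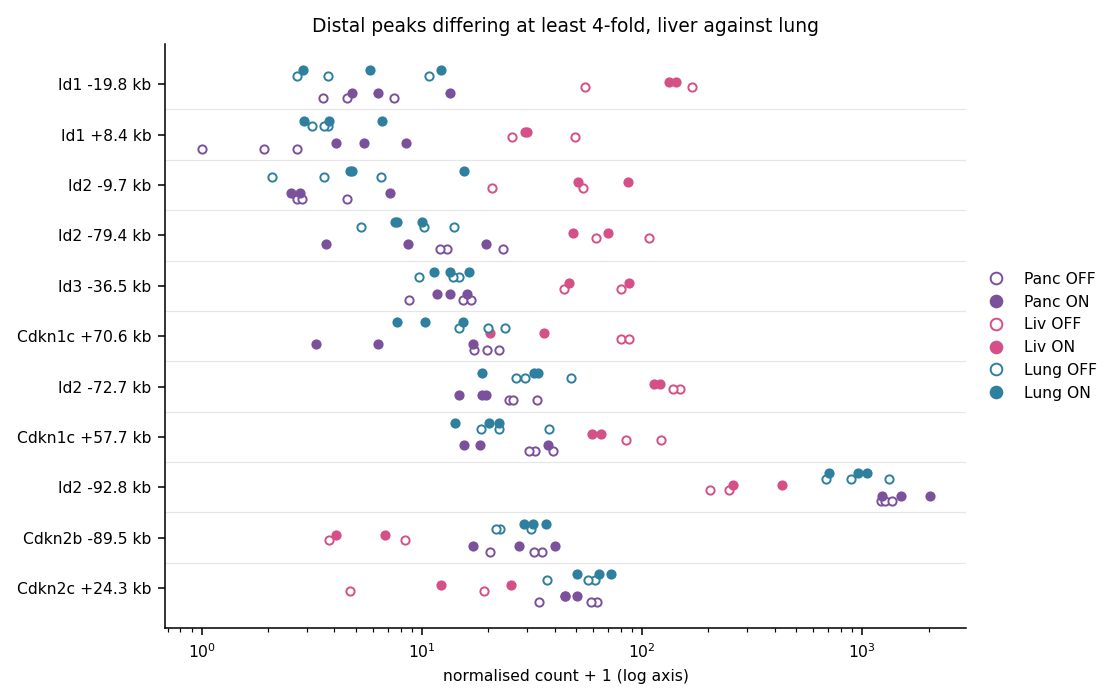
Normalized count + 1 (x axis, log scale) in each sample of the distal peaks that differed at least 4-fold between Liv-Smad4OFF and Lung-Smad4OFF, 1 row per peak and 1 color per group. Liver points lie to the right at Id1 −19.8 kb (54.3 to 167) and to the left at Id2 −92.8 kb (203 to 430).

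The motif letters under the called peaks were counted by direction. In the central 300 bases, the AP-1 letters TGANTCA were in 7 of the 21 member peaks higher in the liver and 8 of the 16 lower ones, against 20.0% and 53.4% of all higher and lower peaks. TGTGGT was in 3 of 21 and 9 of 16 (22.0% and 33.2% of all), and the KLF letters CCACNCCC in 4 of 21 and 3 of 16 (14.4% and 8.35%). All were read on both strands. The KLF letters were about as frequent in both directions among the member peaks. With so few member peaks these counts are a description, and no difference between directions or from the rest was tested.

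Against the pancreas the liver also differed at some of these peaks, at a share below that of all peaks. This comparison shares the Liv-Smad4OFF samples. Between Liv-Smad4OFF and Panc-Smad4OFF, 44 of 83 peaks were called (53.0%), 25 higher and 19 lower, where 58.5% of all peaks were called (26.2% higher, 32.3% lower). Lung-Smad4OFF and Panc-Smad4OFF differed at few of the loci: 2 higher and 2 lower (4.82%), against 17.3% of all peaks (6.59% higher, 10.7% lower). Lower in the lungs were Id1 −6.5 kb and Id3 −7.3 kb, and higher were Cdkn1a +2.7 kb and Cdkn1c +93.2 kb (log2 differences −2.27, −1.59, 0.85 and 0.73). The Id1 peak at −6.5 kb was the 1 peak of that locus that was highest in the pancreas, with 68.3, 99.2 and 157 in Panc-Smad4OFF, 36.8, 17.4 and 12.9 in Lung-Smad4OFF and 35.8 and 43.2 in Liv-Smad4OFF. The pancreas samples were above all those samples, and the lungs were lower by 2.27 ± 0.45 (adjusted p = 0.00443). The fibroblast marker sum was also highest in the pancreas (674 to 1206), and its part in this peak was not tested.

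With Smad4 restored the organs still differed at some of these peaks, but the share called in either direction was not above that of all peaks. Between Liv-Smad4ON and Lung-Smad4ON, 29 of 83 peaks were called (34.9%), 17 higher and 12 lower, against 35.8% of all peaks (17.6% higher, 18.2% lower). Within 20 kb, 10 were higher and 0 lower in limma, against 19.2% and 12.9% of all peaks at that distance. Between Liv-Smad4ON and Panc-Smad4ON, 21 were higher and 16 lower (44.6% called), where all peaks gave 27.1% and 32.2% (59.4% called). Both comparisons of the liver gave fewer calls without Liv-Smad4ON replicate 2, a fit that leaves Liv-Smad4ON without a replicate. At the Id1 start site, counts were 7674 and 9634 in Liv-Smad4ON, 5019, 5195 and 5423 in Lung-Smad4ON and 4074, 3685 and 3950 in Panc-Smad4ON, with no overlap among the 3 organs. The liver was above the lungs by 0.72 on the log2 scale (adjusted p = 0.000461). Lung-Smad4ON against Panc-Smad4ON gave 13 calls (15.7%), 9 higher and 4 lower, where all peaks gave 27.8%, 12.8% higher and 14.9% lower. Of these, 6 of the higher ones were Id2 peaks, all upstream between −65.0 and −12.8 kb, with log2 differences of 0.66 to 1.26. With Smad4 off, 0 Id2 peaks were called between the same organs, and these counts were not compared by a test. Each peak was tested by itself as an interaction, and limma without a replicate block called 0 of the 22 Id2 peaks.

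Restoring Smad4 moved few of these peaks. Within an organ limma called 0 of 83 peaks for pancreas, 0 for liver and 0 for lungs, against 3.42%, 0.55% and 0.00366% of all peaks. At an unadjusted limma p under 0.05 there were 12, 8 and 9 peaks (14.5%, 9.64% and 10.8%), against 16.9%, 12.1% and 7.11% of all peaks. edgeR on the recovered reads called 0 in each organ, against 3.84%, 0.233% and 0.00293% of all peaks. DESeq2 called 4, 2 and 0, against 6.8%, 2.33% and 0.73% of all peaks. The smallest adjusted p of the limma fit were 0.121, 0.174 and 0.521. Averaged over the 3 organs, 3 of 83 peaks were called (3.61%), 1 higher and 2 lower with Smad4 on, against 6.62% of all peaks (3.61% higher, 3% lower). The 3 were the same in limma, edgeR and DESeq2, and none lay within 20 kb of a start site.

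Both peaks that fell were in Kcnq1 introns downstream of Cdkn1c. At +70.6 kb, chr7:143390216-143390595, counts were 79.0 and 86.4 in Liv-Smad4OFF and 34.9 and 19.3 in Liv-Smad4ON, 16.2, 18.8 and 21.3 in Panc-Smad4OFF and 5.33, 16.1 and 2.30 in Panc-Smad4ON, and 13.8, 22.8 and 19.0 in Lung-Smad4OFF and 6.74, 14.4 and 9.33 in Lung-Smad4ON. The off and on samples did not overlap for liver and pancreas and overlapped for lungs. The averaged log2 difference was −1.31 ± 0.31 (adjusted p = 0.0261), made of −1.47 (pancreas), −1.63 (liver) and −0.84 (lungs), and it was called under all 28 alternatives. The whole peak holds a match to the RUNX letters (ACCACA, on the other strand) at chr7:143390555-143390560, which starts at the last base of the stretch printed. The central 300 bases, chr7:143390256-143390555, carry no full match to the motifs searched.
Cdkn1c +70.6 kb: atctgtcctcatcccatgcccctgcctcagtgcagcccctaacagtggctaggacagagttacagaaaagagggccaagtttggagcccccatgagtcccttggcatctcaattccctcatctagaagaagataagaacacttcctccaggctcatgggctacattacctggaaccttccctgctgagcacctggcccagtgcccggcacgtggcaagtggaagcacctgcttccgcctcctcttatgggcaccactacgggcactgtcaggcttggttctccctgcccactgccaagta
At +52.8 kb, chr7:143407988-143408350, counts fell from 95.0 and 120 to 36.1 and 49.8 in the liver, and the averaged difference was −1.13 ± 0.30 (adjusted p = 0.0413). It was not called without Liv-Smad4ON replicate 1. The Cdkn1c start site itself had an averaged difference of −0.05 (adjusted p = 0.746), made of values of opposite sign. In the liver the on samples (422 and 437) lay below the off samples (469 and 575), with a log2 difference of −0.28 (adjusted p = 0.539). In the lungs the on samples (385, 412 and 418) lay above the off samples (287, 366 and 342), with a log2 difference of 0.29 (adjusted p = 0.695). The liver response minus the lung response was −0.57 ± 0.22 (unadjusted p = 0.0179 in limma, adjusted p = 0.927) and was not called.

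The peak that rose was 28.3 kb upstream of Id3, chr4:136114909-136115387. Counts were 45.3, 45.6 and 35.2 in Panc-Smad4OFF and 77.3, 70.6 and 90.4 in Panc-Smad4ON, 18.5 and 20.9 in Liv-Smad4OFF and 47.8 and 25.4 in Liv-Smad4ON, and 71.8, 42.4 and 43.1 in Lung-Smad4OFF and 78.6, 83.4 and 55.1 in Lung-Smad4ON. On samples were above off samples without overlap in the pancreas and the liver. The averaged difference was 0.73 ± 0.19 (adjusted p = 0.037), with 0.91, 0.80 and 0.48 in the 3 organs, and it was not called without Liv-Smad4OFF replicate 1 or without Liv-Smad4ON replicate 1. Its central 300 bases, chr4:136114999-136115298, hold 1 match to the KLF letters, on the other strand, in capitals.
Id3 -28.3 kb: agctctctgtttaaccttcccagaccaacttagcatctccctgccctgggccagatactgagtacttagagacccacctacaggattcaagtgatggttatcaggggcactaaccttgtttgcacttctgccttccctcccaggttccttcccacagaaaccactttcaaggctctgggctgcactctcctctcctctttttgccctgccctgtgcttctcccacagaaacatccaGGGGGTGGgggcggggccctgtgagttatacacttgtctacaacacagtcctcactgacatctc
A neighbor at −29.9 kb and the Id2 peak at −58.6 kb had adjusted p of 0.0299 and 0.0207 but averaged differences of 0.49 ± 0.12 and 0.44 ± 0.10, under the threshold. At the Id2 peak the on samples were above the off samples in the liver (276 and 259 against 167 and 178) and in the lungs (484 to 513 against 324 to 389). The Cdkn2c start site had an averaged difference of −0.16 (adjusted p = 0.0815), also under the threshold. These last peaks were chosen after their values were seen.

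**Figure D5:**
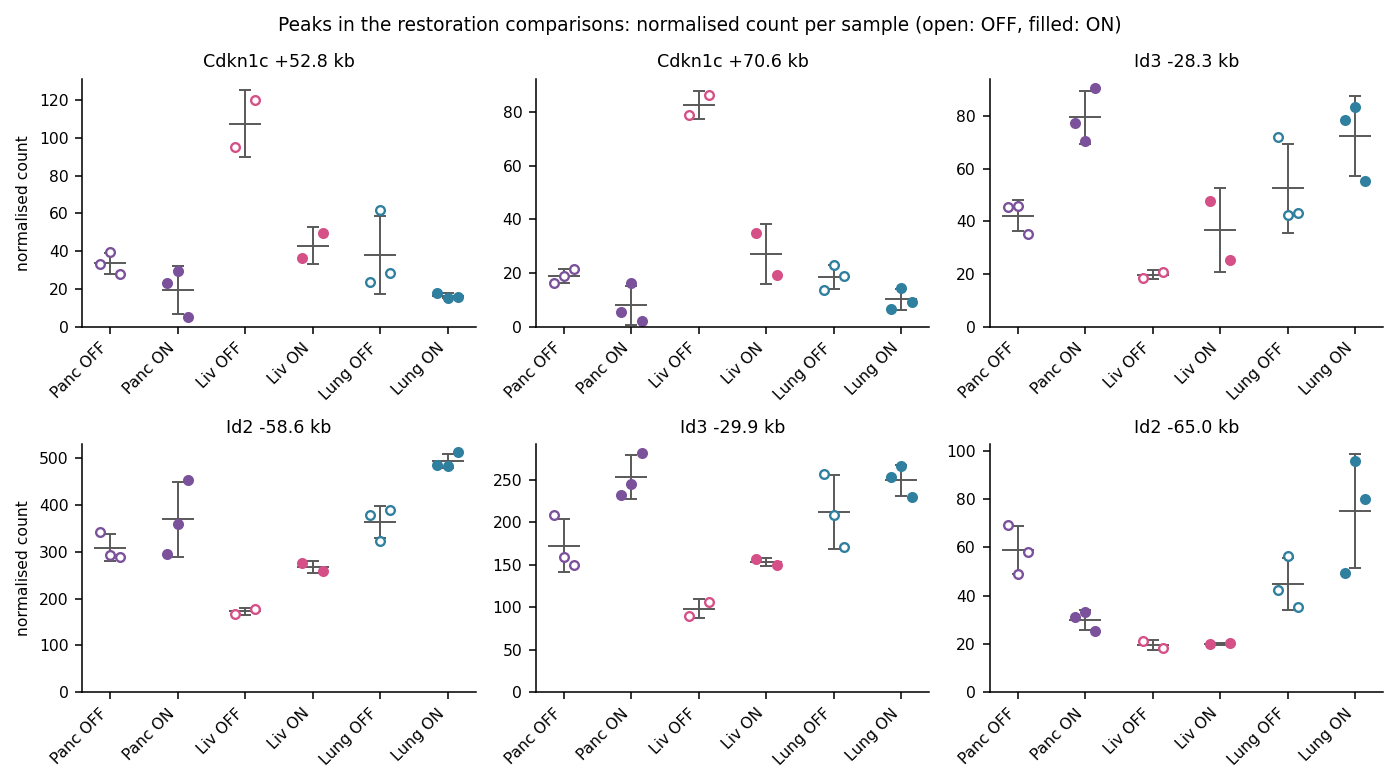
Normalized count (y axis, from 0) per sample, by group, of 6 distal peaks named in the restoration comparisons, with open points for Smad4 off, filled points for Smad4 on and lines for the mean ± SD. Cdkn1c +70.6 kb falls in the liver from 79.0 and 86.4 to 34.9 and 19.3, and Id3 −28.3 kb is higher in Panc-Smad4ON (70.6 to 90.4) than in Panc-Smad4OFF (35.2 to 45.6).

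The start sites of the Id genes, the known BMP and SMAD targets, did not pass in any organ. At Id1 the log2 difference on restoration was −0.24 (pancreas), −0.13 (liver) and 0.15 (lungs), with adjusted p of 0.256, 0.728 and 0.847. In the pancreas the 3 on samples (3685 to 4074) lay below the 3 off samples (4335 to 4896), and in the liver and the lungs they overlapped. At Id3 on samples ran from 3060 to 4158 in the liver, all below the off samples of 4255 and 4308 (−0.26, adjusted p = 0.568). At Id2 the on samples in the lungs (4064 to 4768) all lay above the off samples (3394 to 4033), by 0.18 on the log2 scale (adjusted p = 0.729). The median difference over all start-site peaks was −0.07 (pancreas), −0.16 (liver) and 0.00 (lungs). The Cdkn1b start had the largest lung difference of the start sites, −0.65 ± 0.22 (adjusted p = 0.523), with 2221, 2093 and 2341 in Lung-Smad4ON against 5357, 3496 and 2226, and it was −0.33 (adjusted p = 0.642) without Lung-Smad4OFF replicate 1 and turned to 0.17 once the regional level was subtracted.

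Whether a peak responded differently to restoration in different organs was tested as a difference of responses. Without a replicate block limma called 0 of 83 for the liver minus the lungs, 0 for the liver minus the pancreas and 0 for the lungs minus the pancreas, where 0% of all peaks were called each time. At an unadjusted limma p under 0.05 there were 2, 4 and 6 (2.41%, 4.82% and 7.23%). Among all 136630 peaks there were 7171, 5403 and 14973, a larger share for the first and last comparison and a smaller one for the liver minus the pancreas. edgeR called 0 in each. DESeq2 called 0, 0 and 1, against 0.0351%, 0.0183% and 1.65% of all peaks. The 1 was Id2 −65.0 kb (1.75, adjusted p = 0.0283 in DESeq2), which also had the smallest p in limma. It had 69.2, 49.1 and 58.3 in Panc-Smad4OFF and 31.1, 33.4 and 25.3 in Panc-Smad4ON, 42.3, 56.5 and 35.3 in Lung-Smad4OFF and 49.4, 95.8 and 80.2 in Lung-Smad4ON. In the pancreas the off and on samples did not overlap, and the lung samples overlapped. The difference of the 2 responses was 1.66 ± 0.42 (adjusted p = 0.246 in limma) and was not called. A replicate block in the lungs, which treats same-numbered mice as pairs, gave 1.66 with an adjusted p of 0.0719, past the threshold. No label states such pairs, so that value rests on an assumed pairing. It was also called without Lung-Smad4OFF replicate 2 (1.84, adjusted p = 0.0644).

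Other genes of the same pathways gave a frame for these loci. Of the partners of Id proteins and of related repressors (Tcf3, Tcf4, Tcf12, Hes1 and Hey1), 1 of 5 start sites was called between Liv-Smad4OFF and Lung-Smad4OFF: that of Tcf12, an E protein, was lower in the liver, with 127 and 79.4 against 278, 198 and 234. Over their 137 peaks 29 were higher and 40 lower (50.4% called). Of the 16 cyclins, kinases, pocket proteins, E2F genes and Cdkn2d, all with an open start site, 0 start sites were called by limma (median log2 difference 0.35, near the 0.40 of all start sites), and 29 of their 117 peaks were higher and 25 lower (46.2%). Of 10 feedback and early genes of TGF-beta and BMP signaling, 4 start sites were higher in the liver (Smad6, an inhibitor of BMP signals, Ski, Tgif1 and Atoh8) and 0 lower, where 21.1% of all start-site peaks were higher and 4.68% lower, with Smad6 at 7751 and 7854 against 3317, 5184 and 4490. Of their 147 peaks 30 were higher and 35 lower (44.2%). On restoration no start site of the 3 lists was called in an organ or on average, and the averaged comparison called 3 higher and 4 lower of 137, 6 and 4 of 117, and 9 and 5 of 147 peaks (5.11%, 8.55% and 9.52%, against 6.62% of all peaks).

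With Smad4 off, the mean of the summed counts of a locus was highest in the liver at 6 genes, Id1, Id2, Id3, Cdkn1a, Cdkn1c and Cdkn2c. The share of all genes with this order was not counted. Start-site peaks as a whole were also shifted toward the liver, with median log2 differences of 0.40 from the lungs and 0.38 from the pancreas. At Id1 the sum was 10568 ± 1237 (SD, n = 2) in Liv-Smad4OFF, 5382 ± 837 (n = 3) in Lung-Smad4OFF and 5148 ± 286 (n = 3) in Panc-Smad4OFF, and at Cdkn1c 2230 ± 143, 1563 ± 63.0 and 1379 ± 64.1. Cdkn2b went the other way, with 119 ± 12.9, 225 ± 24.3 and 277 ± 27.4 over its 4 far peaks. Over the 16 samples, the locus sums most like that of Id1 among 11558 genes were those of Lmtk2 (Pearson r = 0.995), Slc25a1 (0.992) and Ccdc120 (0.992). Those most like Cdkn1c were Os9 (0.981), Gna13 (0.976) and Taf1b (0.975). These were picked as the highest of many, and the 16 points share 3 organs and their libraries.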

How the data were processed

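ATAC-seq was done on sorted mKate2+ PDAC cells of 16 mice. Per the labels and the published methods, paired reads were trimmed by the authors (Trim Galore, cutadapt) and aligned to mm10 (GRCm38) with Bowtie2. Peaks were called with MACS2 and merged within 500 bp, and reads per peak were counted with featureCounts. The deposited values are a signal: read counts per peak divided by each library's DESeq2 size factor, as computed by the authors. Filters on duplicates or mapping quality and a shift of reads for the transposase are not given in the sources used here, so cut positions are known only to the width of a peak. All values returned to whole reads (100%, tolerance 0.01), which gave 22.5 to 37.5 M reads in nuclear peaks per library, and mitochondrial reads (1.43% to 3.56%) were left out. Replicates of a group differed by more than counting noise (chi-square per degree of freedom 3.7 to 20.9), so none was merged.

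Each of 136630 nuclear peaks was given to the nearest protein-coding start site within 100 kb (GENCODE basic genes). Starts were converted to count from 1. The test was limma 3.58.1 (R 4.3.3, trend and robust) on log2(normalized count + 1) with 6 group means over all 16 samples, so a fold of a low peak is understated. p-values were Benjamini-Hochberg adjusted over all nuclear peaks. edgeR 4.0.16 (quasi-likelihood) and DESeq2 1.42.0 on the recovered reads were alternatives, beside another pseudocount (10), a minimum mean count (20), TMM, quantile, GC and regional (5 Mb) scaling, members within 20 kb, a replicate block and leaving out each library. The fit was tested on simulated data. The block treated a replicate number as a pairing. It was fitted in the lungs only, within every organ for the restoration comparisons, and across organs for the organ comparisons. In the lungs, deviations of same-numbered off and on samples correlated at 0.491, 0.124 and 0.214. They did not do so in the pancreas (−0.33, 0.027 and −0.33) or in the liver (0.083). No label states any such pairing. Lung-Smad4OFF replicate 2 correlated more with Lung-Smad4ON replicate 3 (0.184) than with its own number. p-values measure the spread between these mice.

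The members, the gene lists and the tests were chosen with earlier results of these data known. Named peaks were, for each gene, the start-site peak or else the nearest, the peak of smallest p among those called for liver against lungs with Smad4 off, and that among those called on restoration; others are said to have been chosen after their values were seen. Sequences and motifs were read from the mm10 genome. 1 allele of the model is not reported here.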

Additional observations from a re-analysis of the deposited data

How the results depend on the processing

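Of 259 counts of called peaks under the alternatives, 233 stayed within 1.5 times the value given. These include counts of 0 that stayed at 0, as for restoration in the lungs, which say little about stability. Restricting the set to peaks within 20 kb gave 15 calls between liver and lungs with Smad4 off and 10 with Smad4 on, 19 and 15 between liver and pancreas, 6 between lungs and pancreas with Smad4 on, and 0 for restoration averaged over organs, since fewer peaks were counted. Lungs against pancreas with Smad4 off gave 7 calls with DESeq2, 7 with quantile normalization and 8 with regional adjustment, in place of 4. Restoration gave 4 calls for the pancreas with DESeq2, 3 with quantile normalization and 2 with regional adjustment, and 2 for the liver with DESeq2. The interaction of lungs and pancreas gave 1 with DESeq2, 1 with the replicate block in the lungs and 1 with that block and a GC correction. The block changed no other count by over 1.5 times. DESeq2 called 20.4% of all peaks for lungs against pancreas with Smad4 off. It called 6.8% and 2.33% of all peaks for restoration in the pancreas and the liver, and 1.65% for the interaction of lungs and pancreas. The shares of all peaks under the other settings are not given here. The cause of the changes in the member counts was not tested.

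Leaving out 1 library at a time gave 32 to 41 calls for liver against lungs with Smad4 off and 36 to 44 for liver against pancreas. With Smad4 on these ranges were 16 to 27 and 23 to 35, both lowest without Liv-Smad4ON replicate 2. Lungs against pancreas gave 2 to 7 with Smad4 off, lowest without Panc-Smad4OFF replicate 3 and highest without Lung-Smad4OFF replicate 1, and 10 to 18 with Smad4 on. Averaged restoration gave 1 (without Liv-Smad4ON replicate 1) to 7 (without Lung-Smad4OFF replicate 1), restoration in the pancreas 0 to 1, and the interaction of lungs and pancreas 0 to 1.

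The log2 difference between liver and lungs turned at 3 peaks that were not called. At the Cdkn1b start it was 0.836 with regional adjustment and ran from −0.409 to 0.224 without single libraries, and on restoration in the lungs it was 0.169 with regional adjustment. At Cdkn2b −82.5 kb it was 0.122 with regional adjustment, 0.194 with the replicate block across organs and GC correction, and −0.472 to 0.077 without single libraries. At the Id4 start it was 0.169 with regional adjustment and −0.502 to 0.315 without single libraries. The liver-lung calls at the Id1 and Id3 start sites, at Id2 −92.8 kb and at the distal peaks that differed at least 4-fold were kept under every alternative run. Those at the Cdkn1a and Cdkn1c start sites and Id3 −3.0 kb were lost under some scalings. That at Cdkn1b −5.7 kb was lost without Liv-Smad4OFF replicate 1 and without Lung-Smad4OFF replicate 3. Depth limits peaks of a few reads, as at Cdkn2a.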
